A study of Mus musculus with 9 samples.

Results

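The 6 genes described here encode metabotropic glutamate receptors, the G protein-coupled receptors for glutamate: Grm5 of group I, Grm2 and Grm3 of group II, and Grm4, Grm7 and Grm8 of group III. They were taken by their gene symbols from tables of 52550 mouse genes, and all 6 passed the filter on low values that left 17080 genes for testing. The study asked what the enhancer RNA eRNA_06347 does in the mouse cortex after stroke, and RNA was sequenced from 9 libraries in 3 groups of 3. All mice were male C57BL/6N, 9 to 12 weeks old. In 2 groups a filament blocked the middle cerebral artery for 1 h (MCAO, a model of ischemic stroke), blood flow was then restored for 6 h, and the infarcted cortex of the same side was taken. Before the occlusion these mice were given a locked nucleic acid antisense oligonucleotide through the lateral ventricles, which either targeted eRNA_06347 (the knockdown group, replicates 2, 3 and 4) or was the negative control (the control oligo group, replicates 1, 2 and 3). Sham mice (replicates 1, 2 and 3) had the neck incision and no filament, carry no oligonucleotide treatment in their labels, and belong to a data set the laboratory had made earlier. Per the labels the MCAO libraries were made from poly(A) RNA and sequenced in pairs, and how the sham libraries were made is not stated in the sources used here. Surgery, oligonucleotide, data set and library preparation therefore cannot be told apart in any comparison with sham. Nothing in the labels says whether a library is 1 animal or a pool, so the p-values measure the spread between these libraries. The level of eRNA_06347 itself is not analysed here.

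Metabotropic glutamate receptors tune glutamate signalling rather than carry the fast current. Group I receptors sit mostly behind the synapse, couple to Gq and phospholipase C, release calcium through IP3 receptors and start endocannabinoid synthesis. Group II and III receptors couple to Gi/o, lower cyclic AMP and, for the most part on nerve terminals, restrain transmitter release, and Grm3 is also a receptor of astrocytes. In ischemia glutamate floods the extracellular space, and these receptors have long been studied there as modulators of excitotoxic injury.

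Values are TPM, the relative transcript abundance of the authors' StringTie tables summed over the transcripts of a gene, a length-normalized share of each library. The libraries held 2.98 to 3.18 gigabases aligned in sham and 4.92 to 5.52 in the MCAO groups. On thinly covered 1-exon transcripts the most frequent number of aligned bases was 51 in every sham library and 282 in every MCAO library, so exon coverage, transcript shares and exon ratios against sham also compare different reads. Short structural noncoding RNA took 62.0 to 66.4% of the TPM in sham and 0.705 to 0.862% in the MCAO libraries, which changes the share left for every other gene. Against sham, the receptors and the gene list counts are therefore given as deposited and after median-ratio scaling, which centres each library on its typical gene. The median log2 change of all genes against sham was 0.56 in the control oligo group and 0.61 in the knockdown group as deposited, and 0.01 in both after scaling. A second difference ran along the transcripts: the median log2 ratio of last-exon to second-exon coverage over 8043 coding transcripts was -0.10 to -0.01 in sham and 0.65 to 1.08 in the MCAO libraries. All 10 markers of cortical excitatory neurons averaged at least 1 TPM in every group. The 5 neutrophil markers summed to 2.59 to 7.59 TPM in sham, with S100a8, Mmp8 and Retnlg averaging under 1 TPM, to 30.9 to 336 TPM in the control oligo group, and to 73.8, 92.3 and 1414 TPM in knockdown replicates 2, 3 and 4. Marker sums of cortical excitatory neurons were 851 to 984 TPM in sham and 2322 to 3443 TPM after MCAO, and after scaling 1154 to 1302 and 2033 to 2745. Those of astrocytes were 936 to 1105 and 1293 to 1653 TPM as deposited, but after scaling 1407 to 1462 in sham, 1014 to 1591 in the control oligo group and 1063 to 1284 in the knockdown group. The part of these marker and coverage differences in the receptor results was not tested. In bulk tissue, fewer cells of a type and less RNA per cell cannot be told apart.

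In the comparison of the control oligo MCAO cortex with sham, 4 of the 6 receptors fell (Grm3, Grm5, Grm7 and Grm8), 1 rose (Grm4, which no longer passed after scaling) and 1 did not pass the test (Grm2, which fell after scaling). The threshold was an adjusted p (Benjamini-Hochberg, over all genes) under 0.05 in limma on log2(TPM + 1). Of all genes tested, 12.8% fell and 52.6% rose by the same rule, and 14.2% and 56.2% had groups that did not overlap in that direction. The median log2 change of the 6 receptors was -0.90, beside 0.56 for all genes. After scaling, 5 receptors fell and none rose, where 29.2% of all genes fell and 26.1% rose. The fold changes below are on the log2(TPM + 1) scale, which understates the change of low genes.

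**Figure D1:**
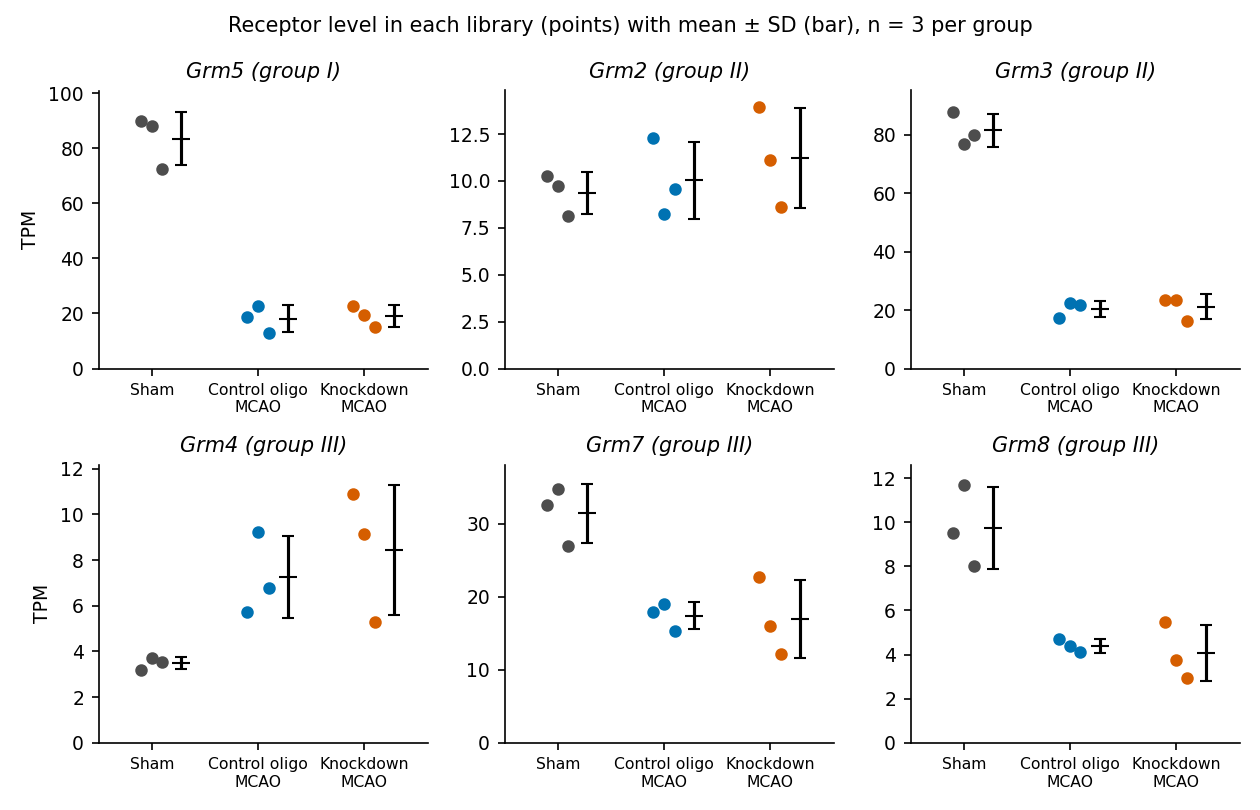
TPM of each receptor (vertical axis, from 0) in the 9 libraries, by group on the horizontal axis, with each library as a point and the mean ± SD of 3 libraries as a bar beside it. The sham libraries of Grm5 sit between 72.4 and 89.9 TPM and both MCAO groups between 13.1 and 22.7, while the 3 groups of Grm2 overlap.

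Grm5, the group I receptor of the list and the main one of the forebrain, showed the largest change of the 6 in summed TPM; by the leading (most abundant) transcript alone its log2 change against sham in the control oligo group was -1.51, smaller than that of Grm3 at -1.95. The gene lies on the + strand of chromosome 7, 87584168 to 88134907 (GRCm38). Its level in sham replicates 1, 2 and 3 was 89.9, 88.0 and 72.4 TPM. In the control oligo replicates it was 18.8, 22.5 and 13.1 TPM. In knockdown replicates 2, 3 and 4 it was 22.7, 19.4 and 15.01 TPM. Every MCAO library lay far below every sham library, and the 2 MCAO groups overlapped. The mean fell from 83.5 ± 9.59 TPM (SD, n = 3) in sham to 18.1 ± 4.77 TPM (SD, n = 3) in the control oligo group, a ratio of 4.604. The log2 change was -2.17 (95% interval -2.63 to -1.71, limma adjusted p = 5.34e-05) and -2.82 after scaling. Of all genes tested, 1.70% had a lower log2 change. Grm5 is also the receptor whose transcript forms are best known: a cassette exon of 96 nt in the coding part of the intracellular tail makes the longer b form. It is shown here in capitals with 15 bases of the flanking exons in lower case, since its use is measured further on (GRCm38, chr7:88116193-88116288, + strand, GENCODE transcript Grm5-204).
Grm5 cassette exon: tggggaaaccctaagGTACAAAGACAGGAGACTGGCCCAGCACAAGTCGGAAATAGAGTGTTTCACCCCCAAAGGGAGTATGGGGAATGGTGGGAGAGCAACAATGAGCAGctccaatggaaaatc

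Grm3, the group II receptor shared by neurons and astrocytes, fell almost as far as Grm5. The gene lies on the - strand of chromosome 5, 9485541 to 9725170. The sham libraries held 87.8, 76.7 and 79.8 TPM. The control oligo libraries held 17.2, 22.3 and 21.6 TPM. The knockdown libraries held 23.5, 23.6 and 16.2 TPM. The lowest sham library was more than 3 times as high as any MCAO library, and the MCAO groups overlapped. From sham (81.4 ± 5.74 TPM, SD, n = 3) to control oligo (20.4 ± 2.79 TPM, SD, n = 3) the log2 change was -1.95 (95% interval -2.29 to -1.62, limma adjusted p = 1.84e-05) and -2.61 after scaling.

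Grm2, the other group II receptor and a presynaptic autoreceptor on glutamatergic terminals, showed no such drop in its TPM. It lies on the - strand of chromosome 9, 106643095 to 106656082. Its sham levels were 10.3, 9.72 and 8.11 TPM, its control oligo levels 12.3, 8.26 and 9.58 TPM, and its knockdown levels 14.0, 11.1 and 8.63 TPM. All 3 groups overlapped. Against sham the log2 change of Grm2 was 0.08 in the control oligo group (95% interval -0.35 to 0.51, limma adjusted p = 0.720), and after scaling it was -0.53 (limma adjusted p = 0.0397), so whether Grm2 changed depends on the scaling. Within libraries the comparison needs no scaling: the log2 ratio of Grm2 to Grm3 was -3.12 ± 0.16 (SD, n = 3) in sham and -1.03 ± 0.49 (SD, n = 3) in the control oligo group, with an exact permutation p of 0.1, the smallest that 3 against 3 libraries allow.

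The upstream sequences of the 2 group II genes are shown because the pair parted within the same libraries. RefSeq's promoter table (GRCm38.p6) held entries for 4 of the 6 members. Each line gives the 250 bases of the entry's window, 5′ to 3′ along the gene, with the GC-box motif GGGCGG (searched on both strands, CCGCCC on the other) in capitals. The Grm2 window is chr9:106656110-106656359 and the Grm3 window is chr5:9725353-9725602, both on the - strand. Both windows lie upstream of the gene coordinates given above and do not border them.
Grm2 promoter: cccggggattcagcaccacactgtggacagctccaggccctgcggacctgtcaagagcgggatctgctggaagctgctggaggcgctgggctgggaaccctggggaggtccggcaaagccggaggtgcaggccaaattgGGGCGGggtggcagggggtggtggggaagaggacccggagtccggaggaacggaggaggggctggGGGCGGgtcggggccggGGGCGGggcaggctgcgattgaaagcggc
Grm3 promoter: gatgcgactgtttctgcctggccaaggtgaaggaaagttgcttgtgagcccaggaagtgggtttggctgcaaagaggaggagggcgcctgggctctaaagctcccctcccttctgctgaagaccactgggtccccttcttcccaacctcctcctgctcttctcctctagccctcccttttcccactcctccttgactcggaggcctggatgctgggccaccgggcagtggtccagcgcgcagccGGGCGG
The motif occurred 3 times in the Grm2 window and 1 time in the Grm3 window, and 32.7% of the 32851 windows of this length in the table held it. G and C made up 71.2% of the Grm2 window and 62.4% of the Grm3 window, beside a median of 52.4% over the table. These matches describe the letters only.

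Of the group III receptors, Grm7 was the most abundant. It is known as the receptor of the presynaptic active zone and needs high glutamate to be engaged. The gene spans 110645581 to 111567230 on the + strand of chromosome 6. Sham libraries held 32.6, 34.7 and 26.9 TPM of Grm7. Control oligo libraries held 18.0, 18.9 and 15.3 TPM, and knockdown libraries held 22.7, 16.0 and 12.1 TPM. No MCAO library reached the lowest sham library. The mean of Grm7 fell from 31.4 ± 4.02 TPM (SD, n = 3) to 17.4 ± 1.88 TPM (SD, n = 3) in the control oligo group, a log2 change of -0.81 (95% interval -1.17 to -0.45, limma adjusted p = 0.00212) and of -1.46 after scaling.

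Grm8, another presynaptic receptor of group III, lies on the - strand of chromosome 6, 27275119 to 28135178, and was the lowest of the 6 after MCAO. Its levels were 9.51, 11.7 and 7.99 TPM in sham. They were 4.69, 4.38 and 4.09 TPM in the control oligo group and 5.45, 3.76 and 2.95 TPM in the knockdown group. Sham and MCAO libraries of Grm8 did not overlap. Its log2 change from sham (9.72 ± 1.85 TPM, SD, n = 3) to control oligo (4.39 ± 0.297 TPM, SD, n = 3) was -0.98 (95% interval -1.40 to -0.57, limma adjusted p = 0.00165) and -1.57 after scaling. Grm7 and Grm8 moved closely together: over the 9 libraries the Pearson correlation of their scaled log2 levels was 0.995, and over the 6 MCAO libraries it was 0.953. These are descriptions, since the 9 points share the separation of sham from MCAO.

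Grm4, on the - strand of chromosome 17, 27422387 to 27521403, was the rarest receptor in sham and moved the other way in TPM. It is best known from cerebellar granule cells and from nerve terminals of the basal ganglia. Sham libraries held 3.20, 3.71 and 3.53 TPM, control oligo libraries 5.74, 9.23 and 6.76 TPM, and knockdown libraries 10.9, 9.13 and 5.31 TPM. Every MCAO library lay above every sham library. The log2 change of Grm4 from sham (3.48 ± 0.257 TPM, SD, n = 3) to control oligo (7.24 ± 1.79 TPM, SD, n = 3) was 0.86 (95% interval 0.41 to 1.31, limma adjusted p = 0.00493). After scaling it was 0.31 (limma adjusted p = 0.153) and the groups overlapped, so the higher value of Grm4 is close to the shift of all genes. The cerebellar granule cell markers summed to 8.94 to 9.84 TPM in sham and 10.7 to 15.6 TPM after MCAO as deposited, and to 12.98 to 13.43 in sham and 9.38 to 12.45 after MCAO with scaling. Those of striatum summed to 88.6 to 109 and 164 to 322 TPM as deposited, with the lowest striatal sum after MCAO in knockdown replicate 4. With scaling the striatal sums were 133 to 145 in sham, 214 to 303 in the control oligo group and 144 to 257 in the knockdown group. The part of these markers in the level of Grm4 was not tested.

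In knockdown against sham 4 receptors fell (Grm5, Grm3, Grm7 and Grm8), 1 rose (Grm4, not after scaling) and 1 did not pass (Grm2), beside 12.5% and 52.7% of all genes. Groups that did not overlap, found for all of these but Grm2, made up 14.2% (lower) and 57.8% (higher) of all genes. This comparison shares its sham libraries with the one above. The log2 changes were -2.09 for Grm5, -1.92 for Grm3, -0.89 for Grm7, -1.10 for Grm8, 1.03 for Grm4 and 0.22 for Grm2. The limma adjusted p of Grm2 was 0.342 and that of Grm4 was 0.00729. After scaling the log2 changes of Grm5, Grm3, Grm7 and Grm8 were -2.79, -2.62, -1.58 and -1.73. All 4 fell and none rose (27.1% and 22.7% of all genes did), while Grm4 stood at 0.43 (limma adjusted p = 0.154) and Grm2 at -0.44 (limma adjusted p = 0.0522).

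The comparison that answers the question of the study, knockdown against control oligo, called none of the 6 receptors by limma, as deposited or after scaling, and none of the 6 had an unadjusted p under 0.05. All adjusted p were 1, and 2 of 17080 genes (0.0117%, and 0.0176% after scaling) passed in this comparison, with 321 at an unadjusted p under 0.05. The 2 groups overlapped for every receptor, where 5.4% of all genes had groups that did not. The difference in Grm5 was 0.08 on the log2 scale (95% interval -0.53 to 0.70). That in Grm3 was 0.04 (-0.47 to 0.55) and that in Grm2 was 0.14 (-0.45 to 0.73). For Grm4 it was 0.17 (-0.56 to 0.90), for Grm7 -0.08 (-0.68 to 0.52) and for Grm8 -0.12 (-0.68 to 0.44). Each interval reaches about 0.44 or more on either side of 0, so these libraries do not exclude differences up to about that size for any receptor. This is not a limit of detection. The intervals are not adjusted for the number of genes, while the calls are. Knockdown replicate 4 had the lowest TPM of its group for all 6 receptors, and it was also the library with 1414 TPM of neutrophil markers. Without this library the log2 difference from control oligo was 0.44 for Grm4, 0.30 for Grm2, 0.23 for Grm5, 0.21 for Grm3, 0.13 for Grm7 and 0.04 for Grm8, and none passed by limma.

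**Figure D2:**
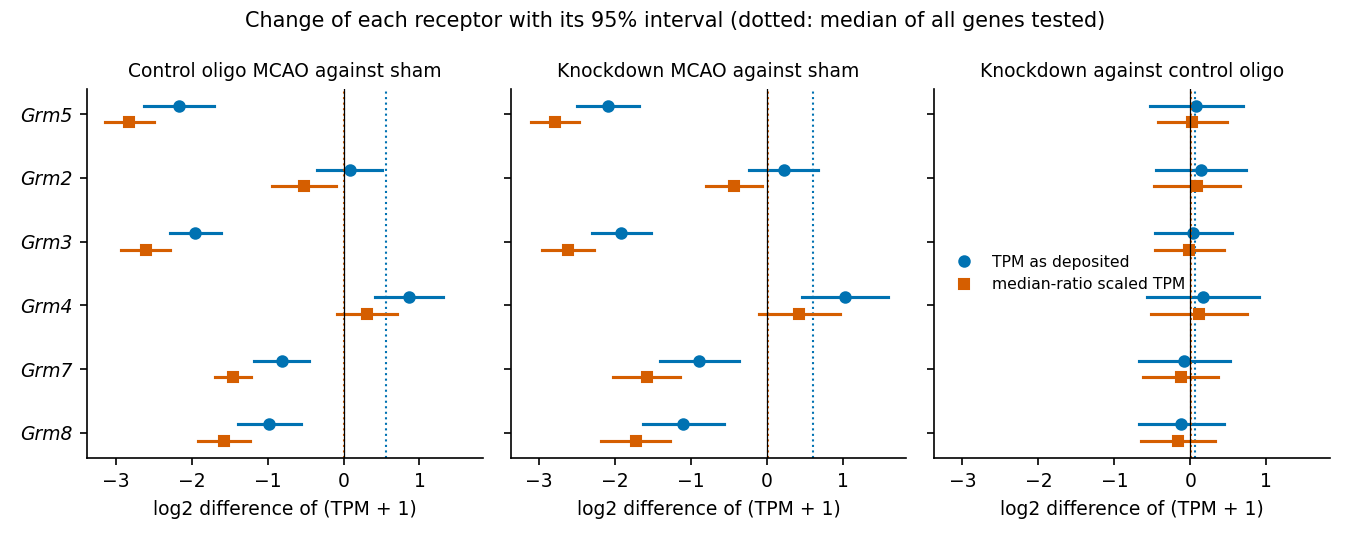
Log2 difference of (TPM + 1) for each receptor (horizontal axis) with its 95% interval from limma, in 3 comparisons, with circles for TPM as deposited and squares for median-ratio scaled TPM, and dotted lines at the median of all genes tested. Grm5, Grm3, Grm7 and Grm8 lie below 0 in both MCAO groups on either scale, Grm4 and Grm2 change sides or calls with the scaling, and all 6 intervals of knockdown against control oligo include 0.

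Because the receptors fell by different amounts, their order by TPM changed. In sham it was Grm5 and Grm3 (overlapping, at 83.5 and 81.4 TPM), then Grm7 at 31.4 TPM, Grm8 and Grm2 (overlapping, at 9.72 and 9.37 TPM) and Grm4 at 3.48 TPM. In the control oligo group Grm3, Grm5 and Grm7 overlapped at 20.4, 18.1 and 17.4 TPM, followed by Grm2 at 10.045 and Grm4 at 7.24 TPM, which also overlapped, and by Grm8 at 4.39 TPM. In the knockdown group the order was the same, and every receptor overlapped the next. The 6 receptors summed to 219 ± 18.0 TPM in sham, 77.6 ± 7.67 TPM in the control oligo group and 80.8 ± 19.6 TPM in the knockdown group (SD, n = 3 each).

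Shares of that sum do not depend on how a library is scaled. Grm5 made up 38.1 ± 1.44% of it in sham and 23.1 ± 4.06% in the control oligo group (SD, n = 3 each), and Grm3 made up 37.3 ± 2.99% and 26.4 ± 4.15%. The shares of Grm7 were 14.3 ± 1.00% and 22.4 ± 0.890%, those of Grm2 were 4.27 ± 0.168% and 13.1 ± 3.22%, and those of Grm4 were 1.60 ± 0.207% and 9.28 ± 1.66%. For these 5 receptors every sham share lay outside the range of the control oligo shares, with an exact two-sided permutation p of 0.1 each, the smallest possible. The share of Grm8 was 4.43 ± 0.665% in sham and 5.68 ± 0.515% in the control oligo group, which overlapped (exact permutation p = 0.2). By class, group III held 20.4 ± 1.69% of the sum in sham and 37.4 ± 0.516% in the control oligo group, without overlap (exact permutation p = 0.1, the smallest possible), while group II stood at 41.6 ± 2.89% and 39.5 ± 4.39% (exact permutation p = 0.6). Counting the leading transcripts only, group II held 55.3 ± 3.66% and 44.7 ± 3.91%, without overlap, and Grm5 held 24.3 ± 1.19% and 20.4 ± 3.91% (exact permutation p = 0.1 for both), so the shares of Grm5 and group II depend on which transcripts are counted. Between knockdown and control oligo the shares of the summed TPM differed by -1.70 to 0.98 percentage points, with exact permutation p of 0.2 to 1. By the leading transcripts only, these differences were -1.79 to 1.49 percentage points. Only the share of Grm7 did not overlap there. It was 18.8 ± 1.37% in the knockdown group and 20.6 ± 0.528% in the control oligo group (SD, n = 3 each, exact permutation p = 0.1, the smallest possible).

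**Figure D3:**
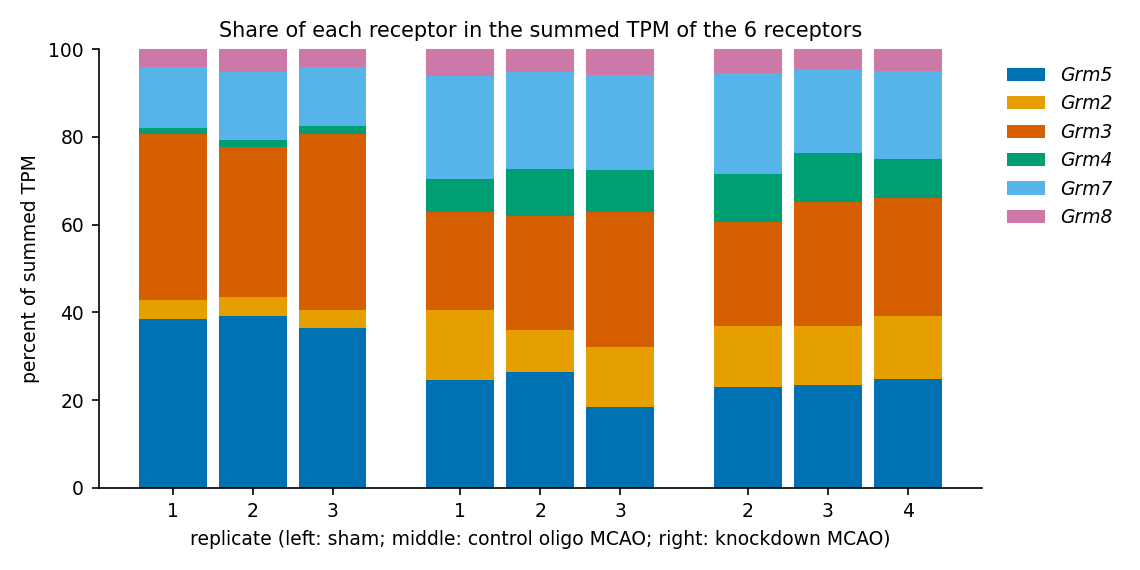
Stacked bars of the percent of the summed TPM of the 6 receptors (vertical axis, 0 to 100) held by each receptor in each of the 9 libraries, grouped from left to right as sham, control oligo MCAO and knockdown MCAO. Grm5 and Grm3 together hold most of each sham bar, and the bands of Grm2, Grm4 and Grm7 are wider in all 6 MCAO bars.

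The deposited tables also give the coverage of each exon, which shows where along a receptor transcript the differences lie. Coverage is given as reads per base per gigabase aligned. The longest coding exon, which in this family encodes the membrane-spanning part, was compared with the last exon of the most abundant transcript, here called the leading transcript. In Grm5-202 the longest coding exon (exon 9, 940 coding nt) had a coverage of 63.2, 60.3 and 54.0 in sham, 7.30, 6.09 and 4.10 in the control oligo group and 6.63, 6.50 and 6.46 in the knockdown group. The last exon of Grm5-202 had 36.9, 37.4 and 34.0 in sham, 10.6, 10.4 and 8.03 in the control oligo group and 11.5, 10.3 and 8.49 in the knockdown group. Both exons of Grm5 were far lower after MCAO, but the ratio of control oligo to sham was 0.10 at the longest coding exon and 0.27 at the last exon.

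In Grm4-201 the higher TPM after MCAO lay at the 3′ end. The last exon of Grm4 had a coverage of 1.305, 2.20 and 2.01 in sham, 7.26, 9.69 and 8.11 in the control oligo group and 10.9, 10.3 and 6.30 in the knockdown group. The longest coding exon (exon 9, 936 coding nt) had 2.61, 2.56 and 2.05 in sham, 2.24, 2.50 and 2.24 in the control oligo group and 2.93, 3.14 and 1.96 in the knockdown group. At the last exon Grm4 was separated from sham in every MCAO library, and at the longest coding exon all 3 groups overlapped. The ratio of control oligo to sham was 4.54 at the last exon and 0.97 at the longest coding exon of Grm4, so the higher TPM is not seen at the longest coding exon.

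Grm2 showed the same kind of gradient. Over Grm2-201 the ratio of control oligo to sham went from 0.17 at the first exon and 0.28 at the second to 0.52 at the longest coding exon (exon 4, 1076 coding nt) and 1.45 at the last exon. At its longest coding exon the 3 sham libraries had 8.31, 8.52 and 8.30 and the 6 MCAO libraries 2.20 to 6.12, without overlap. For the other 3 receptors the coverage was lower after MCAO at every exon. The ratio of control oligo to sham ran from 0.07 to 0.34 over the exons of Grm3-201, from 0.20 to 0.53 over those of Grm7-202 and from 0.15 to 0.54 over those of Grm8-203. The log2 ratio of last to longest coding exon was higher in the control oligo group than in sham by 2.25 in Grm4, 1.51 in Grm2, 1.47 in Grm5, 0.80 in Grm7 and 0.61 in Grm8, each with an exact permutation p of 0.1, while in Grm3 the difference was -0.21 (exact permutation p = 0.3). The value of Grm2 leans on control oligo replicate 1, where the log2 ratio was 1.79, against -0.67 and -0.31 in replicates 2 and 3 and -1.44 to -1.06 in sham. Knockdown and control oligo differed by -0.33 to 0.15 in this log2 ratio (exact permutation p of 0.4 to 1). The gradient of all coding genes given above was measured from the second exon to the last, an unlike pair of exons. Between those exons Grm3 also had a gradient: its ratio of control oligo to sham was 0.08 at the second exon and 0.19 at the last. The receptor gradients thus went the same way as that of all coding genes, and their source was not tested.

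**Figure D4:**
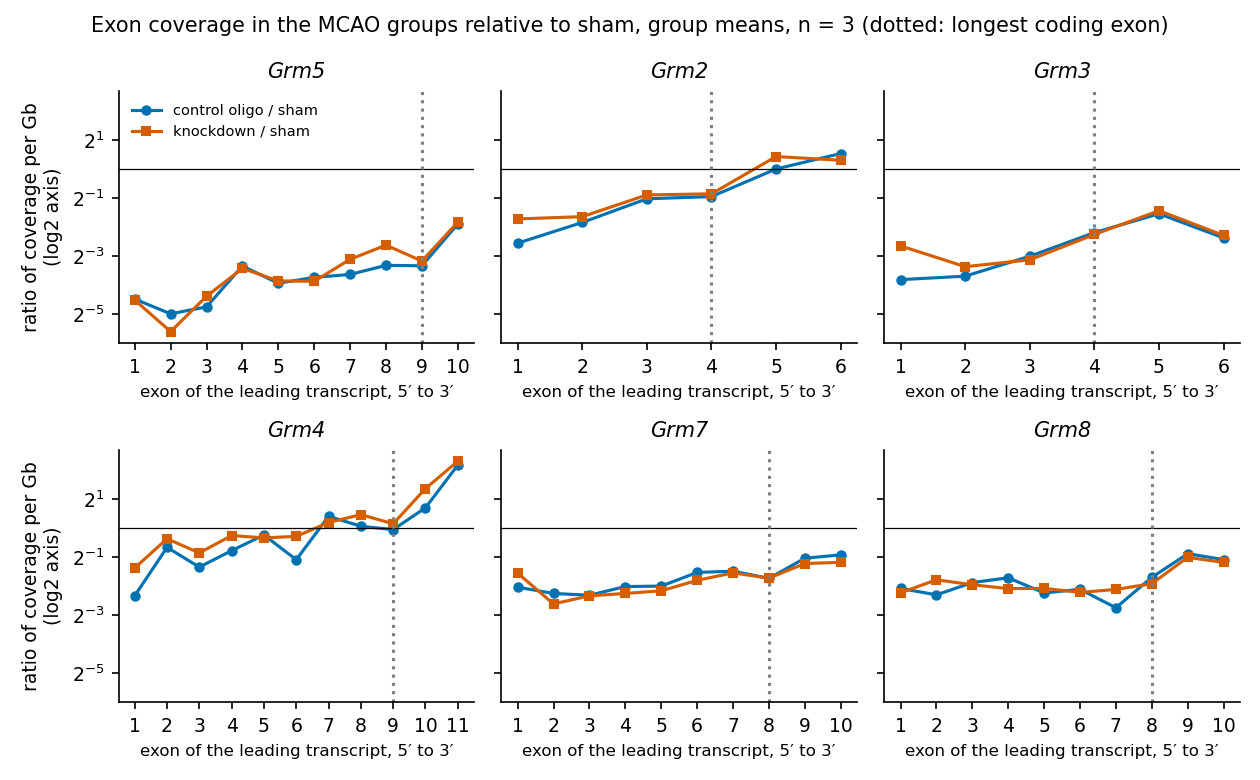
Ratio of mean exon coverage per gigabase aligned to sham (vertical axis, log2 scale) along the exons of the leading transcript of each receptor (horizontal axis, 5′ to 3′), with circles for control oligo and squares for knockdown, n = 3 libraries per group. The 2 MCAO groups run close together, Grm3, Grm5, Grm7 and Grm8 stay under 1 at every exon, and Grm4 reaches 4.54 and 4.97 at its last exon.

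The transcripts of Grm5 did not move in step. The leading transcript Grm5-202 held 47.5 ± 1.36% of the Grm5 TPM in sham and 74.7 ± 4.19% in the control oligo group (SD, n = 3 each, exact permutation p = 0.1, the smallest possible). A short noncoding transcript from the 5′ end, Grm5-205 of 551 nt, had 23.4, 22.1 and 17.9 TPM in sham. It had 0.905, 0.815 and 0 TPM in the control oligo libraries and 1.46, 1.32 and 0 TPM in the knockdown libraries. It was thus near 0 in all 6 MCAO libraries and took 25.3 ± 0.707% of the gene's TPM in sham (SD, n = 3).

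Between knockdown and control oligo, the share of the gene's TPM did not overlap for 4 of the 28 transcripts of the 6 genes (14.3%). The same was not counted over the transcripts of all genes. With 3 against 3 libraries such a separation has an exact permutation p of 0.1, so some are expected with no difference between the groups. The 2 most abundant of these 4 transcripts are Grm2-201 and Grm2-202. Grm2-202, a coding transcript of 2181 nt and 3 exons, was at 0.00503, 0.00553 and 0.000883 TPM in sham. Control oligo libraries had 1.40, 0 and 0 TPM and knockdown libraries 2.65, 2.03 and 1.78 TPM. Its share of the Grm2 TPM was 0 to 11.4% in the control oligo group and 18.2 to 20.6% in the knockdown group, and the share of the leading transcript Grm2-201 was 89.7 ± 8.97% and 74.3 ± 2.64% (SD, n = 3 each). These transcripts were chosen after their values were seen and are given as a description. StringTie divides shared reads between overlapping transcripts, so such shares are estimates. For Grm8 the division was unstable: the leading transcript Grm8-203 had 0.932, 8.198 and 3.31 TPM in the 3 sham libraries. Grm3 had a single transcript.

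The alternative exons near the tails of Grm5 and Grm7 were measured directly, as coverage of the exon in percent of the coverage of the coding exon before it. They were chosen after their coverage was seen, so their values are given as a description without a p. The 96-nt exon of Grm5, printed above, reached 88.1, 89.7 and 91.7% of the upstream exon in sham. In the control oligo group it reached 44.9, 79.1 and 94.8%, and in the knockdown group 110, 85.2 and 70.9%. Sham libraries were close to each other, and the MCAO libraries scattered around them at a coverage of 16.4 to 39.1 reads per base, and the groups overlapped. StringTie's own estimate for Grm5-204, the transcript that holds this exon, was only 24.9% of the Grm5 TPM in sham, so the transcript estimate and the exon coverage differ.

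For Grm7, 2 of the annotated tails are shown here, each as the end of the coding sequence. Lower case marks 15 bases of the shared upstream exon, and capitals mark the differing part, down to the stop codon. The first is that of the leading transcript (chr6:111566018-111566067) and the second arises when a 92-nt exon is included (coding part chr6:111501510-111501580, both GRCm38, + strand).
Grm7-202 tail: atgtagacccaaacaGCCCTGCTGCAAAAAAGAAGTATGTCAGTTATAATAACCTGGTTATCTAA
Grm7-201 tail: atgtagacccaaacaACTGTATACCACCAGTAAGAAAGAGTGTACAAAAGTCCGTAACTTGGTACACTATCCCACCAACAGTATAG
The 92-nt exon reached 41.6, 41.9 and 41.4% of the upstream exon of Grm7 in sham. It reached 35.7, 35.9 and 34.6% in the control oligo group. In knockdown replicates 2, 3 and 4 it reached 21.4, 25.6 and 22.1%. The 3 groups did not overlap. The means were 41.6 ± 0.281%, 35.4 ± 0.733% and 23.0 ± 2.28% (SD, n = 3 each), and the knockdown mean was 12.4 percentage points below the control oligo mean. The last exon of the leading transcript, measured in the same way, stood at 64.5 ± 2.62%, 70.0 ± 11.3% and 67.3 ± 9.95% with overlap. A 233-nt exon of Grm7 with 38 coding nt, the remaining alternative exon measured, reached 8.65 ± 1.84%, 8.89 ± 1.87% and 8.04 ± 1.89%, also with overlap. StringTie's estimate for Grm7-201, the longest coding transcript with the 92-nt exon, did not follow the exon coverage. It was 2.04% of the Grm7 TPM in sham, 2.85% in the control oligo group and 2.57% in the knockdown group. Grm7-205, a coding transcript of 386 nt that spans the place of this exon, held 6.25%, 11.2% and 10.8% in the same groups. The coverage of the 92-nt exon was 8.33 to 30.9 reads per base, which is thin for a ratio, and the counting error was not estimated.

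**Figure D5:**
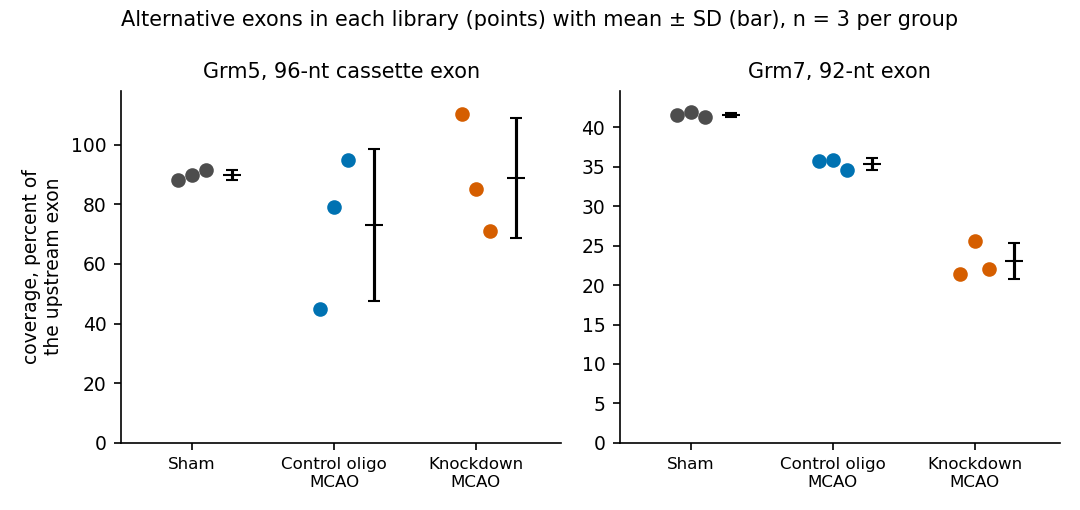
Coverage of the 96-nt exon of Grm5 (left) and of the 92-nt exon of Grm7 (right) as percent of the coverage of the upstream coding exon (vertical axis, from 0), with each library as a point and the mean ± SD of 3 libraries as a bar. The Grm7 exon lies between 41.4 and 41.9% in sham, 34.6 and 35.9% in the control oligo group and 21.4 and 25.6% in the knockdown group, and the Grm5 exon scatters in the MCAO libraries.

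Of the 20 scaffolds and partners that hold these receptors, 11 rose, 3 fell and 6 did not pass in the control oligo group against sham, near the 52.6% and 12.8% of all genes. After scaling 9 rose and 6 fell, beside 26.1% and 29.2% of all genes, with a median log2 change of 0.05. Homer1, the scaffold that ties Grm5 to IP3 receptors, fell from 152 ± 30.3 to 85.02 ± 17.03 TPM (SD, n = 3 each, log2 change -0.84, and -1.50 after scaling, limma adjusted p = 0.00572 as deposited). Homer3 rose from 2.16 ± 0.0207 to 7.48 ± 0.921 TPM (log2 change 1.42), and Homer2 stood at 13.5 and 10.8 TPM (limma adjusted p = 0.217), and fell by 0.95 on the log2 scale after scaling. Grasp, which encodes the group I receptor scaffold tamalin, rose from 13.4 ± 2.25 to 92.8 ± 25.1 TPM (log2 change 2.68, and 2.05 after scaling). Elfn1, a postsynaptic adhesion protein that recruits Grm7 to synapses, rose from 4.63 ± 0.464 to 13.7 ± 2.20 TPM (log2 change 1.38, and 0.80 after scaling), while its relative Elfn2 did not pass (17.8 and 26.0 TPM, limma adjusted p = 0.164). Arrb2, an arrestin, rose with a log2 change of 1.99, and of 1.35 after scaling.

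Of the 16 genes of the Gq arm used by Grm5, 7 rose, 5 fell and 4 did not pass in the control oligo group, beside 52.6% and 12.8% of all genes. After scaling 5 rose and 10 fell, beside 26.1% and 29.2%. Itpr1, the IP3 receptor, fell from 250 ± 25.0 to 106 ± 16.8 TPM (log2 change -1.24, and -1.90 after scaling), and Plcb1, a phospholipase C, fell from 96.7 ± 10.4 to 47.7 ± 8.16 TPM (log2 change -1.01). Trpc5, a cation channel gated downstream of Gq, fell with a log2 change of -1.77. Rgs2, which shortens Gq signals, rose from 21.6 ± 2.06 to 60.5 ± 7.78 TPM (log2 change 1.44). The G protein subunit Gnaq did not pass (51.3 and 60.6 TPM, limma adjusted p = 0.281), and after scaling it fell by 0.43 on the log2 scale. Against sham in the knockdown group 7 rose and 5 fell, beside 52.7% and 12.5% of all genes. With scaling these counts were 5 and 9, beside 22.7% and 27.1%. Mgll (1.11) and Dagla (1.17), an enzyme pair of endocannabinoid turnover, led the rises as deposited by p.

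Of the 24 genes of the Gi/o and cyclic AMP arm used by the group II and III receptors, 12 rose, 4 fell and 8 did not pass in the control oligo group, beside 52.6% and 12.8% of all genes. After scaling 5 rose and 11 fell, beside 26.1% and 29.2%. Gnao1, the main Go subunit of brain, rose from 63.1 ± 6.71 to 167 ± 28.6 TPM (log2 change 1.38, and 0.73 after scaling), and Gng3 and Gnb2 rose with log2 changes of 1.91 and 1.22. Adcy1, a calcium-stimulated adenylyl cyclase, fell from 159 ± 5.09 to 77.8 ± 10.3 TPM (log2 change -1.03), and Kcnj3, a channel opened by Gi/o, fell with a log2 change of -1.09. In the knockdown group 11 rose and 4 fell against sham, among them Gng7 (1.77) and the channel gene Kcnj6 (-1.18). Of all genes 52.7% rose and 12.5% fell there. With scaling 5 rose and 8 fell, beside 22.7% and 27.1% of all genes.

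Among 14 genes of glutamate release, uptake and metabolism, 7 rose and 2 fell in the control oligo group, near the 52.6% and 12.8% of all genes. After scaling 1 rose and 5 fell, beside 26.1% and 29.2%. The astrocyte transporter Slc1a2 fell from 453 ± 38.5 to 325 ± 26.0 TPM (log2 change -0.48), and Slc17a6, a vesicular transporter, fell with a log2 change of -0.71. Slc1a3 did not pass (148 and 183 TPM, limma adjusted p = 0.102). Glul (glutamine synthetase), Got1 and Got2 rose with log2 changes of 0.84, 0.77 and 1.25, of which only that of Got2 (0.59) still passed after scaling. In the knockdown group 7 rose and 1 fell against sham, beside 52.7% and 12.5% of all genes. With scaling 1 rose and 4 fell, beside 22.7% and 27.1%. Glud1 stood at 0.84, and at 0.13 after scaling where it did not pass.

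The ionotropic receptors, which carry the fast current, gave the nearest comparison. Of 6 NMDA receptor subunit genes tested 3 rose and 3 fell in the control oligo group, and of 9 AMPA and kainate subunit genes 2 rose and 4 fell, beside 52.6% and 12.8% of all genes. After scaling 2 rose and 3 fell in the NMDA list and 1 rose and 6 fell in the AMPA and kainate list, beside 26.1% and 29.2%. Grin2a and Grin2b, the main regulatory NMDA subunits of cortex, fell with log2 changes of -2.41 and -1.50, and Grin1 and Grin2d rose with 1.41 and 1.45. Gria2 and Gria3, AMPA subunits, fell with -1.68 and -0.90, and Grik5 and Grik4, kainate subunits, rose with 1.56 and 0.88, the latter not passing after scaling. The median log2 change was 0.04 for the NMDA list and 0.08 for the AMPA and kainate list, beside -0.90 for the 6 metabotropic receptors, and after scaling -0.55, -0.49 and -1.51. In knockdown against control oligo, limma called no gene of these 6 lists. All lists against sham share the limits of data set and coverage given above.

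By likeness of pattern, measured as the Pearson correlation of scaled log2 levels over the 9 libraries among 10636 genes, Grm5 was nearest to Scaper (0.999), March6 (0.999) and Ncam2 (0.998). Within the 6 MCAO libraries alone these correlations were 0.985, 0.981 and 0.888. Grm3 was nearest to Rn7s6, Zfp942 and Tubb4b-ps1 (0.996 to 0.997, and 0.851 to 0.881 in the 6 MCAO libraries). Nalcn, a sodium leak channel gene, was among the 3 nearest genes of both Grm7 (0.995, with Nceh1 and Bri3bp) and Grm8 (0.996, with Ypel2 and Syt16), and stood at 0.955 and 0.956 with them within the MCAO libraries. Grm4 was nearest to Sf3b2 (0.984, and 0.995 in the MCAO libraries), Rmnd5b and Aldh1b1, and Grm2 to Ccng2 (0.979, and 0.983), Cmc1 and Srp54a. Over all 9 libraries these values share the separation of sham from MCAO, and they say nothing of shared control. Among the members, Grm3 and Grm5 correlated at 0.984 over the 9 libraries and at 0.057 over the 6 MCAO libraries, so their likeness rests on that separation.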

How the data were processed

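StringTie tables of 9 mouse cortex libraries, 3 per group, had been deposited by the authors and hold coverage, FPKM and TPM values for each transcript and coverage for each exon. The authors used HISAT2 2.0 for alignment and StringTie 1.3 on GRCm38/mm10, per the submitters' processing notes. Per the file headers StringTie was version 1.3.4d, run on a merged annotation without a strand option, so antisense overlaps are uncertain. Read counts are not used here, and no count test was run.

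TPM was summed per gene, and genes with a TPM of at least 1 in at least 3 of 9 libraries were kept (17080 of 52550). For each pair of groups log2(TPM + 1) was fitted without covariates by limma-trend (limma 3.58.1 in R 4.3.3), with Benjamini-Hochberg adjustment over all genes kept. The script was tested on simulated data. In median-ratio scaling, a library was divided by the median, over genes, of its ratio to the geometric mean of all libraries. Shares, ratios between receptors and exon ratios were compared by two-sided exact permutation tests over libraries. The same test was run on the alternative exons, but no p is given for them, since they were chosen after their coverage was seen. Exon coverage was summed over the transcripts that hold the exon and divided by the gigabases aligned, which were derived from deposited coverage and FPKM, 89.0 to 90.7% of them in transcripts. Transcript names and coding parts came from GENCODE M21. Tables and plots were made in Python 3.11.15 (numpy 2.4.6, pandas 2.3.3, matplotlib 3.10.9).

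Named genes were all members, the 2 genes with the smallest p in each direction of each list, 12 scaffold, signalling and transporter genes whatever their values, and the 3 genes most like each member with a mean TPM of at least 5. Some genes the rule names are not reported here. The members, lists and rules were chosen with earlier results of these data known. Alternatives were other scalings, FPKM, a pseudocount of 0.1, no filter, 1 fit of all 9 libraries, a replicate block and leaving out each library.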

Additional observations from a re-analysis of the deposited data

How the results depend on the processing

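Grm3, Grm5, Grm7 and Grm8 stayed past the threshold in limma in 13 of 13 planned settings in both comparisons with sham, and no setting called a receptor in knockdown against control oligo. The log2 change of Grm2 turned negative with TPM over nuclear protein-coding genes (-0.69 in the control oligo group and -0.63 in the knockdown group, against sham). It did so too with median-ratio scaling (-0.53 in the control oligo group and -0.44 in the knockdown group). With 1 library left out, the change in the control oligo group ran from -0.06 to 0.20. Grm4 against sham no longer passed with FPKM, nuclear protein-coding TPM or median-ratio scaling (0.33, 0.21 and 0.31 in the control oligo group, 0.46, 0.30 and 0.43 in the knockdown group). At its longest coding exon, an alternative chosen after seeing the data, Grm4 was at -0.047 in the control oligo group. Causes were not tested.

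Receptors whose leading-transcript share did not overlap between control oligo and sham numbered 1 of 6, and 1 to 3 when each library was left out in turn (2 without sham replicate 1, 2 without control oligo replicate 2 and 3 without control oligo replicate 3). No such count was made over all genes. Receptors whose share of the sum did not overlap numbered 5, and 4 to 6 with 1 library or Grm5 left out. The deviations of same-numbered libraries correlated at -0.03, -0.07 and 0.12 in control oligo and sham and at 0.23 and 0.07 in knockdown and control oligo, too unevenly to pair them, and a replicate block left the receptors called at 5, 0 and 5. Counting error was not estimated, since the analysis used coverage and not read counts.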
